A study of Mus musculus with 6 samples.

Results

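Genes of DNA repair and of the Fanconi anaemia pathway were described in mouse neural stem cells transduced with a short hairpin RNA (shRNA) that was either scrambled or aimed at Sox4, which encodes a SoxC transcription factor. Members were the rows of the authors' comparison that name 1 gene and whose symbol belongs to a fixed pattern of repair gene names (Fanc, Brca, Rad, Xrcc, Ercc, Msh, Parp and similar stems, with single genes such as Atm, Exo1 and Ung). The pattern found 91 rows for 90 genes among 12234 single-gene rows, out of 12316 rows in all. Fancf stands in 2 rows. Atrip and Rad54b share a row with a neighbouring gene and were not counted as members.

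All 6 libraries came from CD-1 embryonic neural stem cells of day E14.5, bought commercially, grown as monolayers with EGF and bFGF, transduced with a lentivirus and kept in puromycin at 0.5 µg/mL. Each of 3 groups holds 2 libraries numbered by passage: the scrambled hairpin SHC002, the Sox4 hairpin TRCN0000012078 and the Sox4 hairpin TRCN0000012080. The comparison gives 1 level per condition and no value per library. Its header numbers the 2 conditions without naming them, and does not say whether both Sox4 hairpins were joined. The conditions are termed first and second here. Each direction below therefore compares the second condition with the first, and no spread between libraries can be given. The cells are bulk cultures, so fewer cells of a kind and less RNA per cell cannot be told apart.

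Cells meet several kinds of DNA damage, and each has its own repair route. Base excision repair removes small base lesions, nucleotide excision repair removes bulky ones, and mismatch repair corrects replication errors. Double-strand breaks are rejoined by end joining or by homologous recombination, in which BRCA proteins act on resected DNA. The Fanconi pathway opens crosslinks between strands and hands them to the same recombination proteins. Dividing neural progenitors are known to depend on these routes, and inherited defects in several of them cause small brain size.

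Of the 91 member rows 3 rose, 1 fell and 87 were not called. Atm and Mdc1, which signal double-strand breaks, rose by 1.75 and 1.69 times per the authors' deposited table. Prkdc, the catalytic kinase of end joining, rose 1.65-fold there, and Parp1, the main sensor of single-strand breaks, fell 1.57-fold in the authors' deposited table. A gene is termed called, and said to have risen or fallen, where the authors' Cuffdiff analysis flagged it at a q under 0.05, adjusted over their whole table. Among all 12234 single-gene rows 3.16% rose and 1.84% fell. The members' shares were 3.30% and 1.10%, so members were called about as often as other genes.

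The start regions of Atm, Mdc1 and Parp1 are shown because these genes were called, and those of Brca1 and Bard1 because they had the lowest p-values among other members with an entry. Each sequence runs 5′ to 3′ on the gene's strand, from RefSeq on GRCm38.p6, and ends before the first base that RefSeq or GENCODE places in the gene. Capitals mark matches, on either strand, to the letters TTTGGCGC, TTTGCCGC, TTTCGCGC or TTTCCCGC (E2F), TTTGAA (CHR), CCAAT (NF-Y) and AACAAT or ACAAAG (Sox). The Atm window is chr9:53536741-53536921, minus strand, with CCAAT read on the other strand 165 bases before the RefSeq start.
Atm: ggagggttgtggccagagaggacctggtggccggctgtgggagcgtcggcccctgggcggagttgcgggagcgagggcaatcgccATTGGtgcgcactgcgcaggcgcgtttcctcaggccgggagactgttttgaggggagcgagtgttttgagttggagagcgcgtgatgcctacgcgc
The Mdc1 window is chr17:35841248-35841497, plus strand, with CCAAT 75 and TTTCCCGC 16 bases before the start.
Mdc1: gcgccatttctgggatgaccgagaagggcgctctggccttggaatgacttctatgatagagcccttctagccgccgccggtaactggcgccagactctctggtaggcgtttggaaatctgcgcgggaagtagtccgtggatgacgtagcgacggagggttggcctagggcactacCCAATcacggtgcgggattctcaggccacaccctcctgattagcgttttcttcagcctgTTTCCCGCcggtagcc
The Parp1 window is chr1:180568641-180568890, plus strand, and has no match.
Parp1: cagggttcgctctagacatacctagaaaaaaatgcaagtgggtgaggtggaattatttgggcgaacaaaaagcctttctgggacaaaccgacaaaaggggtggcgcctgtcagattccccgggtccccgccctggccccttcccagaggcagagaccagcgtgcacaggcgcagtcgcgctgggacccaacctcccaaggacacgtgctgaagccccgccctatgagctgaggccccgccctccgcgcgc
The Brca1 window is chr11:101551956-101552205, minus strand, with CCAAT 86 bases before the start and ACAAAG read on the other strand 216 bases before it.
Brca1: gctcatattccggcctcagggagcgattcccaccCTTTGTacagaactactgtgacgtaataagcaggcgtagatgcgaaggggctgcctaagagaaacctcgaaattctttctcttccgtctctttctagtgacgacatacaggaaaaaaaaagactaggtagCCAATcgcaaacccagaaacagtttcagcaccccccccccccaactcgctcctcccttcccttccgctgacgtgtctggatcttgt
The Bard1 window is chr1:71103147-71103222, minus strand, with TTTCCCGC 209 and TTTGAA 242 bases before the RefSeq start.
Bard1: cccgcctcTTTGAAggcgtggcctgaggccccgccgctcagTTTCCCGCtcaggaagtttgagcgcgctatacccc

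Prkdc, Exo1 and Recql4 had no entry in the sequence table. In all, 70 members matched an entry, with 79 windows of 300 bases. Unlike the printed regions, these windows include bases past the RefSeq start, and a gene with several windows counts once for each. E2F letters stood in 11 of these windows, or 13.9%, against 4.06% of the windows of all genes in the comparison and 2.27% of every window in the RefSeq table. CCAAT stood in 57.0% of members' windows, against 38.5% and 37.4%. Sox letters stood in 20.3% of members' windows, against 18.7% and 27.0%, and TTTGAA in 5.06%, against 11.6% and 17.9%. No E2F, CHR, NF-Y or Sox motif overlapped another in the 5 printed regions. A match of letters is a description of the sequence and not a binding site.

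Checkpoint signalling held 2 of the 3 rises, among 10 members, where 3.16% of all single-gene rows rose. Both rises lie in the longest 10% of transcripts, where 13.2% of all genes rose. ATM is the kinase that answers double-strand breaks, and Atm (chromosome 9, 53439149 to 53536740, minus strand) went from 3.70 to 6.48 per the authors' deposited table. The authors' deposited table lists its log2 fold as 0.81 and its q, from Cuffdiff, as 0.00304. These levels are in FPKM, fragments scaled to transcript length and library size, as Cuffdiff writes them, since the header gives no unit. MDC1 binds the damage mark on histone H2AX, and Mdc1 (chromosome 17, 35841515 to 35859670, plus strand) went from 22.6 to 38.1 per the authors' deposited table, or 0.75 on the log2 scale, at q 0.00304. Both genes had the lowest p that the comparison gives, 5e-05, and 230 rows share it. Trp53bp1, whose product holds back resection at breaks, stood at 19.3 and 25.7 in the authors' deposited table, with a p of 0.0415 and a q of 0.281.

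The other 7 checkpoint genes showed smaller differences, and 0 of them had a p under 0.05. Atr, the kinase that answers stalled forks, stood at 2.52 and 3.08 in the authors' deposited table. Its effector kinase Chek1 stood at 8.99 and 10.4, and Chek2, the effector of ATM, at 8.71 and 8.02 in the authors' deposited table. Rad17, which loads the checkpoint clamp, stood at 13.5 and 11.4 in the authors' deposited table. The clamp subunit genes Rad1, Rad9a and Rad9b had log2 folds of -0.08, 0.12 and 0.19 in the authors' deposited table.

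**Figure D1:**
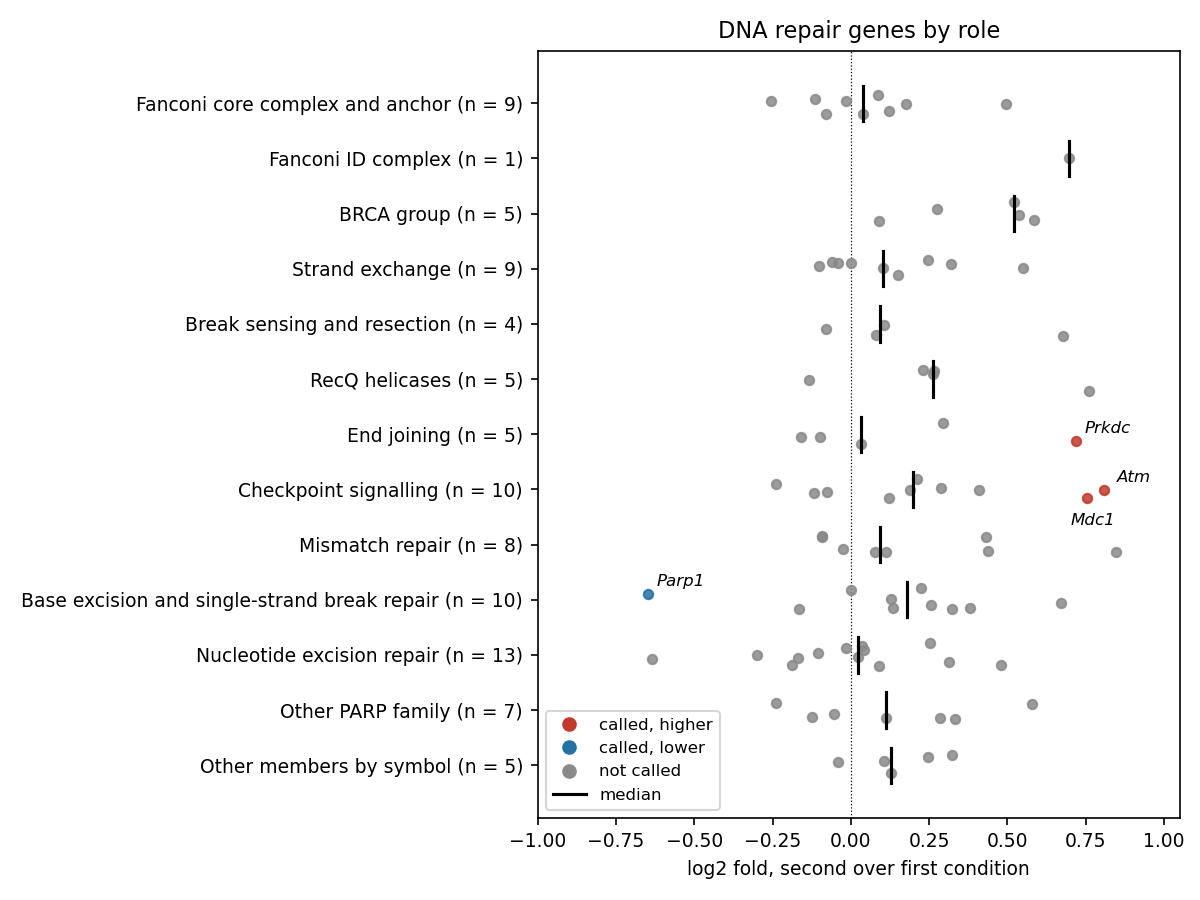
Deposited log2 fold of each of the 91 member rows, second over first condition, on the horizontal axis, by role on the vertical axis. Points are rows, red where called higher, blue where called lower and grey where not called, and black bars are medians. Prkdc, Atm and Mdc1 lie between 0.72 and 0.81 and Parp1 at -0.65, while most other points lie within 0.5 of 0.

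End joining was represented by 5 members. Prkdc (chromosome 16, 15637866 to 15842235, plus strand) encodes the kinase that joins the Ku complex at a broken end, and went from 1.5 to 2.47 per the authors' deposited table. The authors' deposited table lists its log2 fold as 0.72 and its q as 0.0259. With a pseudocount of 1 the log2 fold was 0.47, and the call was lost at a q under 0.01 and at a minimum level of 5 in the higher condition. The Ku genes did not follow it past the threshold. Xrcc6 (Ku70) stood at 19.8 and 24.3 and Xrcc5 (Ku80) at 19.1 and 19.6 in the authors' deposited table. The ligase gene Lig4 and its partner Xrcc4 had log2 folds of -0.10 and -0.16 in the authors' deposited table.

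Base excision and single-strand break repair held the only fall, among 10 members, where 1.84% of all single-gene rows fell. Parp1 (chromosome 1, 180568924 to 180601254, plus strand) encodes the enzyme that marks single-strand breaks with chains of ADP-ribose. It went from 172.6 to 110.1 per the authors' deposited table, or -0.65 on the log2 scale, at q 0.0105 by Cuffdiff. It was the third most abundant member after Ddb1 and Rad21. Parp2, its closest relative in this route, stood at 11.6 and 13.5 in the authors' deposited table, and Parp3 at 0.910 and 1.45, neither called. XRCC1 is the scaffold that PARP1 recruits, and Xrcc1 stood at 20.7 and 26.9 in the authors' deposited table, with a p of 0.0553.

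The other genes of that route were not called, and their p-values lay above 0.2. Apex1, the endonuclease that cuts at sites without a base, stood at 27.42 and 27.46 in the authors' deposited table. Its statistic is close to 0, and its exons overlap those of Pip4p1 on the other strand. Lig3, the ligase partner of XRCC1, stood at 14.5 and 15.9 in the authors' deposited table. The glycosylase genes Ung, Ogg1, Neil1 and Neil3, which cut out damaged bases, had log2 folds between -0.17 and 0.32 in the authors' deposited table.

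**Figure D2:**
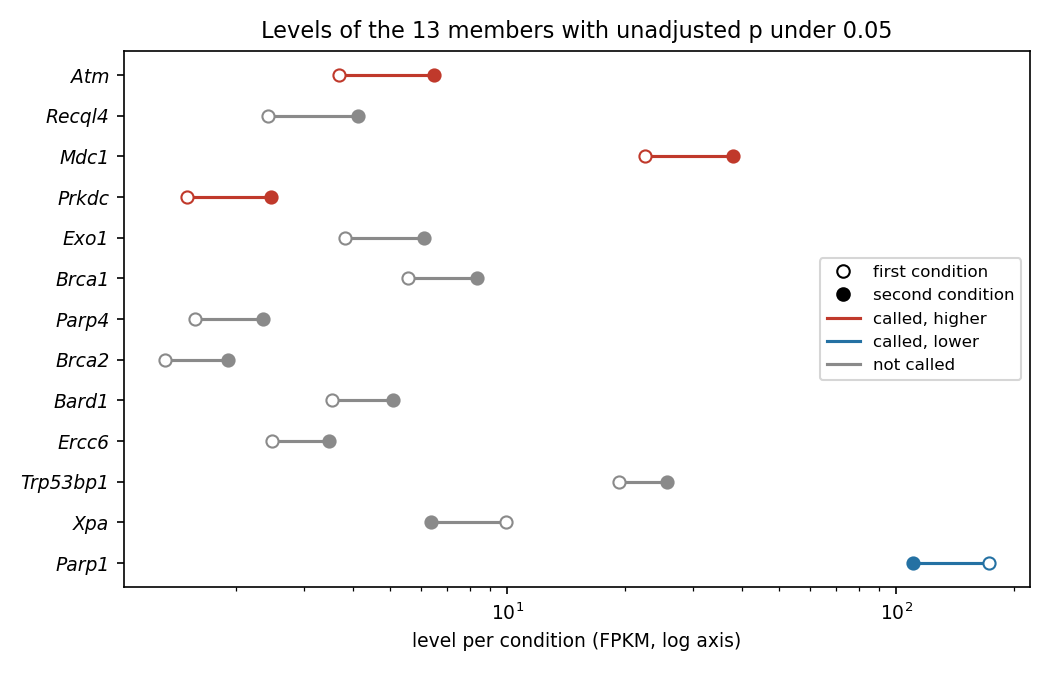
Levels of the 13 members with an unadjusted p under 0.05, in FPKM on a log axis, with open circles for the first and filled circles for the second condition. Lines are red for the 3 rises, blue for the fall and grey for members not called. Of these 13 members, 11 were higher in the second condition, and Xpa and Parp1 were lower.

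At an unadjusted p under 0.05, 11 member rows were higher and 2 lower, which is 12.1% and 2.2% of the 91. Over all single-gene rows the same shares were 9.96% and 7.57%. Members outside the 4 calls that met this p were Exo1, Brca1, Recql4, Bard1, Parp4, Brca2, Ercc6, Trp53bp1 and Xpa. Of the 91 rows 62 had a positive fold, or 68.1%, against 50.4% of all single-gene rows. The median log2 fold was 0.11 over members and 0.0032 over all rows. An absolute log2 fold under 0.25 was found in 55 member rows, or 60.4%, against 55.6% of all single-gene rows. No member doubled or halved, and the largest fold was that of Msh5, 1.80-fold at levels under 1 in the authors' deposited table.

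The BRCA group was positive in all 5 members, and 0 were called. Brca1, a ubiquitin ligase that promotes resection, stood at 5.56 and 8.34 in the authors' deposited table, with a p of 0.00355 and a q of 0.0686. Its obligate partner Bard1 stood at 3.54 and 5.08 in the authors' deposited table, with a q of 0.181. Brca2, which acts after resection in recombination, stood at 1.32 and 1.91 per the authors' deposited table, with a q of 0.202. These 3 log2 folds, from 0.52 to 0.59, were close to each other. Brip1, a helicase that binds BRCA1, and Palb2, which links BRCA1 to BRCA2, had log2 folds of 0.28 and 0.09 in the authors' deposited table.

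Resection and strand exchange gave 1 member near the threshold. Exo1, a nuclease that resects broken ends, stood at 3.82 and 6.11 in the authors' deposited table, with a q of 0.0531. With q recomputed over single-gene rows at a level of at least 1, it became 0.0451 and passed. The break sensor genes Mre11a, Rad50 and Nbn had log2 folds of 0.08, 0.11 and -0.08 in the authors' deposited table. Of the 9 members in the strand exchange list 0 were called and 6 were positive. Xrcc3, a recombination gene, stood at 2.58 and 3.78 in the authors' deposited table, with a statistic of 0.46 and a p of 0.44.

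The RecQ helicases unwind recombination intermediates. Recql4 stood at 2.43 and 4.12 per the authors' deposited table, or 0.76 on the log2 scale, with a p of 0.005 and a q of 0.0838. Blm stood at 7.60 and 9.13 and Recql at 7.29 and 8.76 per the authors' deposited table. Wrn stood at 1.94 and 2.28 and Recql5 at 7.25 and 6.60 in the authors' deposited table. Exons of Recql4 overlap those of Mfsd3 on the other strand, so without strand the reads of the pair mix. The same holds, among other members, for Brca2, Fanca, Parp3, Parp4, Trp53bp1, Xpa and Xrcc3. Their partners are, in that order, Gm42529, Zfp276, Rrp9, Gm16573, Tubgcp4, Ncbp1 and Klc1. A microRNA gene, Mir6904, lies in exons of Parp1 on its own strand.

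Genes of the Fanconi core lay close to 0 as a group. The core complex, which attaches ubiquitin to the FANCI and FANCD2 pair, had 9 rows for 8 genes with a median log2 fold of 0.04, and 0 were called or had a p under 0.05. Fanca, its largest difference, stood at 7.21 and 10.2 in the authors' deposited table, with a p of 0.0533 and a q of 0.318. Fancl, the ubiquitin ligase of the complex, stood at 7.58 and 6.35 in the authors' deposited table. Fance, the most abundant, stood at 11.9 and 11.3, and Fancm, the anchor on DNA, at 3.53 and 3.99 in the authors' deposited table. The 2 rows of Fancf had log2 folds of -0.12 and -0.02 in the authors' deposited table.

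Fanci stood apart from the core in size but not in its test. It went from 14.6 to 23.7 per the authors' deposited table, or 0.70 on the log2 scale, with a statistic of 0.98, a p of 0.113 and a q of 0.45. Exo1, with a similar log2 fold of 0.68, had a statistic of 1.92 in the authors' deposited table. Exons of Fanci overlap those of Polg on the other strand. Fancd2, the partner of FANCI, lies outside the symbol pattern and stood at 9.90 and 12.4 per the authors' deposited table, with a q of 0.412. In all, 5 uncalled members had an absolute log2 fold above the 0.65 of Parp1: Msh5, Recql4, Fanci, Exo1 and Parp3.

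Mismatch repair genes were not called in any of 8 members, and 5 were positive. Msh6, whose product recognises single mismatches, stood at 19.5 and 26.3 in the authors' deposited table. Pms2, which acts after mismatch recognition, stood at 6.08 and 5.71 in the authors' deposited table. Msh5, known for its part in meiosis, had the lowest level of any member, 0.415 and 0.745 in the authors' deposited table, with a p of 0.0581.

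Nucleotide excision repair was the largest list, with 13 members, 0 called and 7 positive. Xpa, which verifies the lesion, stood at 9.90 and 6.38 per the authors' deposited table, or -0.63 on the log2 scale, with a p of 0.0326 and a q of 0.247. Ercc6, which starts repair at stalled transcription, stood at 2.49 and 3.47 in the authors' deposited table, with a p of 0.0276 and a q of 0.226. Ercc5, a nuclease of the route, stood at 8.56 and 6.95 in the authors' deposited table. The most abundant member of all was Ddb1, an adaptor of cullin ligases with uses beyond repair, at 209.8 and 216.1 in the authors' deposited table. Rad23b stood at 61.9 and 73.7 in the authors' deposited table. Xpc, the lesion sensor that its product binds, stood at 4.89 and 4.29 in the authors' deposited table.

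The symbol pattern also took in 12 members with other main roles. Of the 7 further PARP family genes 0 were called. Parp4 stood at 1.58 and 2.35 per the authors' deposited table, or 0.58 on the log2 scale, at q 0.2. Parp12 and Parp11 had log2 folds of 0.33 and 0.11 in the authors' deposited table. Rad21, a cohesin subunit, stood at 183.8 and 178.7, and Rad18, a ubiquitin ligase for stalled forks, at 9.94 and 11.8 in the authors' deposited table. Ercc6l, a helicase of mitotic chromosomes, had a log2 fold of 0.32 and a p of 0.102 per the authors' deposited table.

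The rises lay in long transcripts. By the longest annotated transcript, Atm measures 9819 nt, Mdc1 7335 nt and Prkdc 12647 nt, all within the longest 10% of genes in the comparison, which begins at 6848 nt. The other 8 members of that length were Atr, Brca2, Brip1, Ercc6, Exo1, Fancm, Rad54l2 and Trp53bp1. All 11 had a positive fold, their median log2 fold was 0.48 and 7 had an unadjusted p under 0.05. Over all genes of that length 13.2% rose, 31.4% were higher at that p, 75.2% had a positive fold and the median log2 fold was 0.23. Among the 80 shorter member rows 0 rose and Parp1 fell, the median log2 fold was 0.09 and 63.8% were positive. Over all shorter rows 2.05% rose, 47.7% were positive and the median log2 fold was -0.02. Of the 11 members higher at an unadjusted p under 0.05, 10 lay in the longest 30% of transcripts, with Recql4 at 3984 nt as the exception. Over all rows higher at that p, 59.8% lay in the longest 30%. The part of transcript length in these differences was not tested.

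**Figure D3:**
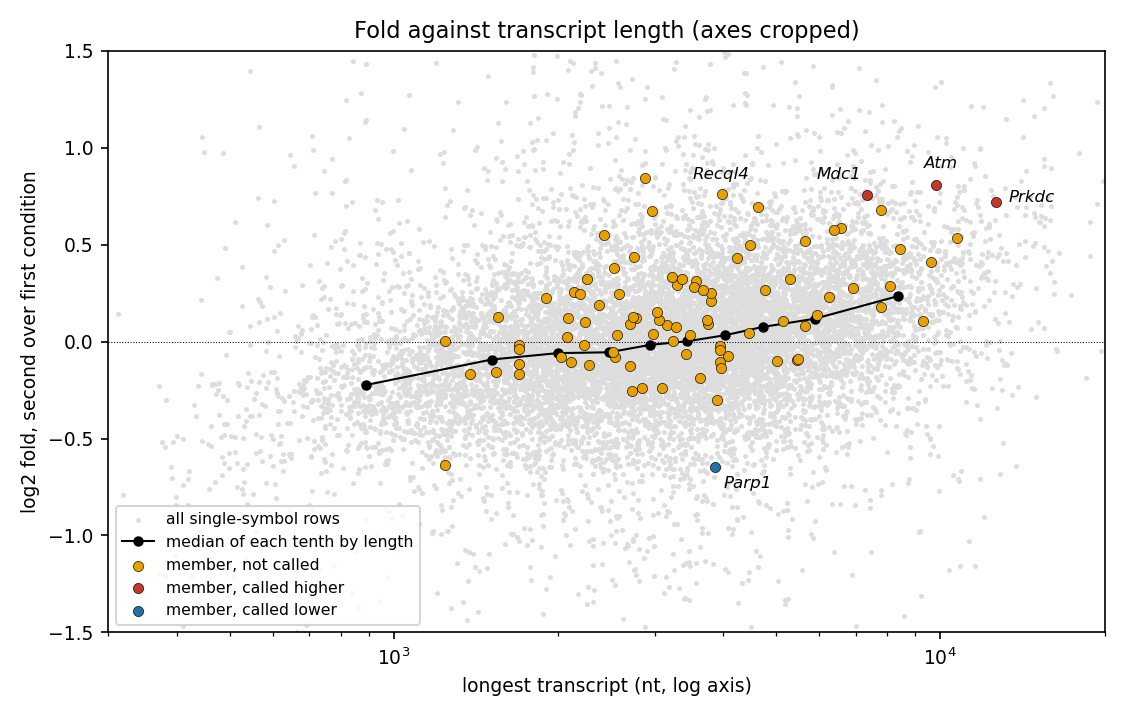
Deposited log2 fold, second over first condition, against the longest transcript in nt on a log axis, cropped at log2 folds of -1.5 and 1.5. Grey dots are all single-gene rows, the black line joins medians of 10 length bins, and coloured points are members. The line climbs from -0.22 in the shortest to 0.23 in the longest bin, and the 3 red members lie at the long end above it.

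Of the 4 called members, Atm and Prkdc have a neighbour that starts close by from the opposite strand, and neither neighbour was called. In all, a protein-coding gene begins within 1000 bases upstream on the other strand for 27 members, and of 23 such neighbours with a row of their own 0 were called and 7 were positive, where 5.002% of all single-gene rows were called. Npat, a factor of histone gene transcription, starts 307 bases from Atm and stood at 3.78 and 3.91 in the authors' deposited table, with a p of 0.815. Mcm4, a subunit of the replicative helicase, starts 466 bases from Prkdc and stood at 54.1 and 71.5 in the authors' deposited table, with a p of 0.0244 and a q of 0.211. Nbr1 starts 194 bases from Brca1 and stood at 59.7 and 55.8 in the authors' deposited table. The differences within these pairs were not tested.

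Further repair genes outside the symbol pattern were counted from lists with 99 names, of which 93 had a row. Of these 2 rose and 2 fell, or 2.15% each, against 3.16% and 1.84% of all single-gene rows. Their median log2 fold was 0.05. The largest difference was that of Mgmt, which encodes the enzyme that takes alkyl groups off guanine. It rose from 2.04 to 5.95 per the authors' deposited table, or 2.91-fold, at q 0.0187 and a length of 2894 nt. Uhrf1, known for keeping DNA methylation through replication, rose from 39.7 to 62.1 per the authors' deposited table, with a q of 0.0162. Shfm1 encodes the small protein DSS1 that binds BRCA2, and fell 1.83-fold per the authors' deposited table, from 166.0 to 90.7, at q 0.00304. Mad2l2 (REV7), a subunit of translesion polymerase zeta that also protects ends from resection, fell from 67.1 to 42.5 per the authors' deposited table, with a q of 0.0248. Both are short transcripts, of 1472 and 1535 nt.

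At an unadjusted p under 0.05, 10 of the 93 further genes were higher, or 10.8%, and 4 lower, or 4.30%, called ones included. The same shares of all single-gene rows were 9.96% and 7.57%. Some of those that met this p without being called follow. Dna2, a nuclease that works beside EXO1, stood at 3.71 and 6.12 in the authors' deposited table, with a q of 0.0517. Rpa1, the large subunit of the single-strand binding complex, stood at 49.6 and 71.0 per the authors' deposited table, with a q of 0.0726. Timeless, a fork protection gene, stood at 13.3 and 19.4 per the authors' deposited table, with a q of 0.0827. Gtf2h5, a subunit of the repair factor TFIIH, was lower, at 52.5 and 35.5 per the authors' deposited table, with a q of 0.107. Polq, the polymerase of alternative end joining, stood at 2.02 and 2.99 per the authors' deposited table, with a q of 0.139. Genes of the p53 axis were near 0, with log2 folds of -0.08 for Trp53, -0.07 for Mdm2 and -0.12 for Cdkn1a in the authors' deposited table.

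Replication and mitosis genes were set beside the members, since many repair genes are expressed in S phase. Over all single-gene rows 3.16% rose, 1.84% fell and 50.4% were positive. Of 34 replication licensing and fork genes 4 rose, or 11.8%, and 0 fell, the median log2 fold was 0.24 and 85.3% were positive. The rises were Mcm2, Mcm3, Cdt1 and Pole, and Cdt1, a licensing factor, went from 10.2 to 16.5 per the authors' deposited table, at q 0.0469. Of 25 mitosis and spindle genes 0 were called by Cuffdiff and 1, Espl1, had an unadjusted p under 0.05, with a median of -0.04 and 36.0% positive. The members' median of 0.11 lay between these. The median transcript lengths were 2879 nt for replication, 3368 nt for members and 3414 nt for mitosis genes. The differences between these lists were not tested.

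**Figure D4:**
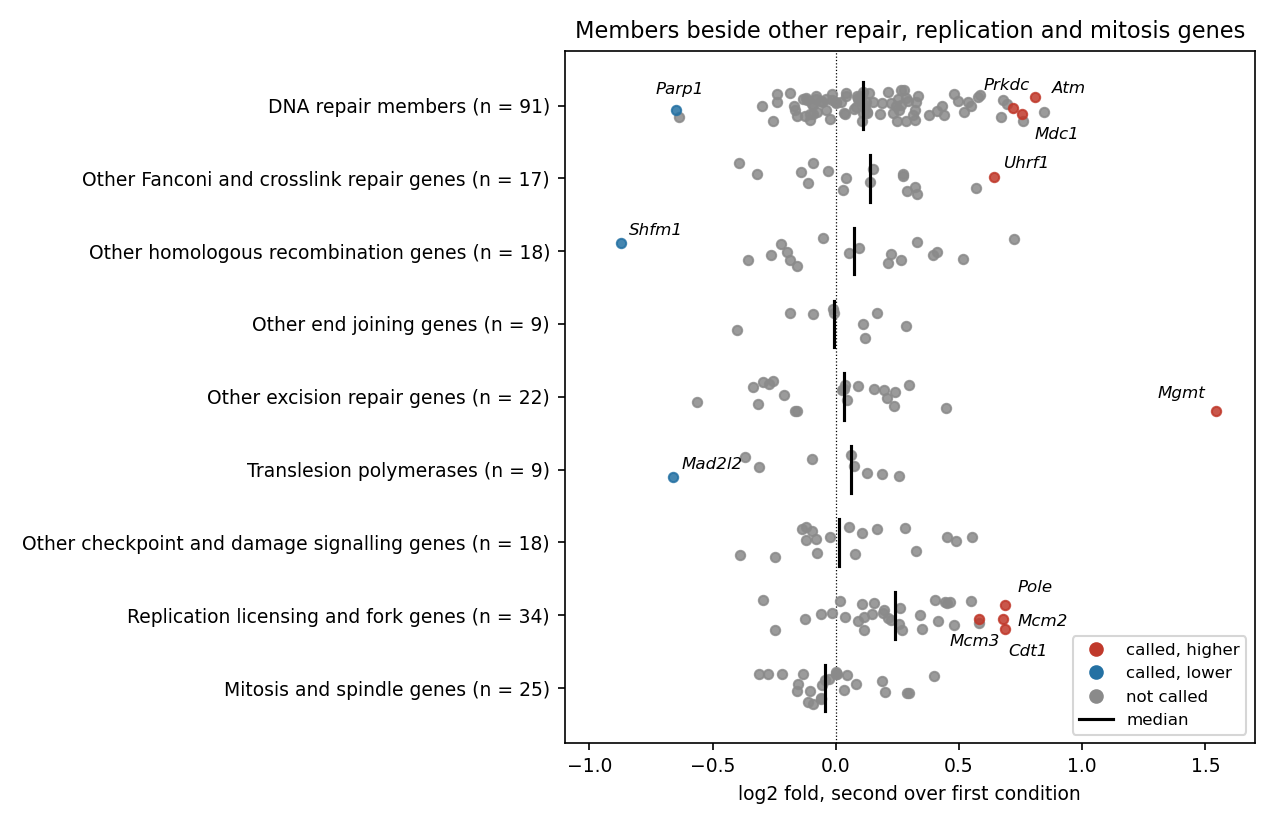
Deposited log2 fold, second over first condition, of the members and of 8 further gene lists, with points red where called higher, blue where called lower and grey where not called, and black bars for medians. Mgmt lies farthest right at 1.54 and Shfm1 farthest left at -0.87. The bar of the replication list at 0.24 lies right of the members' bar at 0.11.

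Sox4 itself stood at 126.8 and then 83.9 per the authors' deposited table, with a q of 0.0543, and was not called. With q recomputed over single-gene rows at a level of at least 1, it became 0.0461 and passed. Its exons overlap Gm26735 on the other strand. All 9 neural stem cell markers had a row, with Sox2 at 59.7 and 51.1 and Nes at 98.1 and 169.8 in the authors' deposited table. Over all single-gene rows 3.16% rose and 1.84% fell, and of these 9 markers Nes, Notch1 and Sox1 rose and Fabp7 fell. The summed level of the 9 markers went from 6126 to 3959 with Fabp7, and from 1505 to 1674 over the other 8. None of the 5 microglia, 5 fibroblast and 4 endothelial markers is among the rows analysed here. Of 5 astrocyte markers, on the log2 scale, Gfap fell by 2.55, Aqp4 fell by 1.23 and Aldh1l1 rose by 1.22, per the authors' deposited table. The summed level of all 5 went from 1154 to 823 and was mostly that of Aldoc, which was not called. Oligodendrocyte markers had 2 of 6 with a row, of which 1 fell, and neuron markers had 4 of 6, with 0 called. The part of these differences in the members' values was not tested.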

How the data were processed

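Poly(A) RNA of 6 libraries was sequenced by the submitters, and the data used here are the authors' Cuffdiff comparison of 2 conditions, with no values per library. Tools listed in the submitters' processing notes are Cufflinks 2.2.1, TopHat2 2.0.9 and Cuffdiff (version not listed), and the build is mm10. Which annotation was used, and whether counting used strand, is not given in the sources used here. Per the file headers, the deposited table holds levels per condition, a log2 fold, a test statistic (a score), p-values and q-values. Recomputing the log2 fold from the levels gave the same values up to rounding, so it holds no pseudocount. The header states no unit for the levels, and FPKM is taken from the layout that Cuffdiff gives such deposited tables. Sequencing depth is unknown and no test could be refitted. Nothing says that passages were separate cultures, so the authors' p-values reflect only how far these libraries differ, possibly for technical reasons.

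Computed here, with pandas 2.3.3 and numpy 2.4.6 on Python 3.11.15 (figures with matplotlib 3.10.9), were counts of calls, medians and shares over 12234 rows, leaving out 82 rows that name several genes. The members and gene lists were chosen with earlier results of these data known. The text names every called member, those with an unadjusted p under 0.05, and in each role list the 2 largest folds and the most abundant gene, besides further members for context; some genes that this rule names are not reported here. Positions, lengths and exon overlaps are from GENCODE M21 on GRCm38, the assembly of mm10, with lengths for 99.4% of rows. Whether the authors used it is not stated. Exons of 40 members overlap another gene's, in 38 of them on the other strand. The counting and the Benjamini-Hochberg step were tested on simulated data against statsmodels 0.14.6. Alternatives were a stricter q, level filters, a recomputed q, a pseudocount of 1, centring, and leaving out long transcripts or members with other roles.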

Additional observations from a re-analysis of the deposited data

How the results depend on the processing

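The 3 rises became 0 without the longest 10% of transcripts, since all 3 lie there. They also became 0 where a log2 fold of 1 or more in size was asked for, since no member reaches that size. Both settings leave out calls without a new test, so their outcome follows from the values given above. The 1 fall became 0 at a q under 0.01, and 0 where that size was asked for. Prkdc was the rise lost at a q under 0.01, and also at a minimum level of 5. Under the other settings tried, the rises numbered 2 to 4 and the fall stayed at 1. The 4 rises were those with Exo1 added, when q was recomputed over rows reaching a level of 1. The members' median log2 fold stayed between 0.09 and 0.11 and the positive share between 63.5% and 68.4% over the settings tried. With a pseudocount of 1, the log2 folds of 3 of 13 named members, Prkdc, Brca2 and Parp4, shrank by a factor of over 1.5. No paired analysis was possible because each condition has a single level and no library values, so the block on passage and leaving out each library were not run.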
